A study of Mus musculus with 6 samples.

Results

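The miR-297, miR-466, miR-467 and miR-669 families were measured in CT26 cells, a mouse colorectal cancer line, with and without a short hairpin RNA against TGF-β1. The members were all mouse probes of the array with a name in 1 of these families, with any letter, locus or arm, and probes shared by several names were kept. This gave 69 probes of 1126 mouse miRNA probes, carrying 81 miRNA names, since 8 of the probes bind more than 1 member. A probe counted as measured where its mean background-subtracted intensity, the brightness of its 4 spots above their local background in arbitrary units, reached 50 on at least 3 of 6 arrays. By that limit 28 member probes were measured and 41 were low.

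The knockdown line was stably transfected with the shRNA-TGF-β1-pSUPER gfp-neo vector and the control line with the shRNA-Control vector of the same kind, so both carried the plasmid and its GFP and neomycin markers. Both lines were sampled after 24, 48 and 72 h, and each line has 1 array for each time, from cultures that the labels describe as grown and harvested independently. The labels word the times as hours of transfection and also call the transfection stable, so the starting point of the clock is unsettled. They do not say whether each line was a single clone, and 1 line of each kind was used. The 3 arrays of a line are also its 3 times. A p-value for the line difference therefore sets it against its change from time to time. It does not cover the spread between repeat arrays of 1 time or between independently made lines. Tgfb1 is not on a miRNA array, so the knockdown itself could not be checked.

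Most miRNAs of this group are made from hairpins inside a large intron of Sfmbt2, a Polycomb-group gene that is imprinted and expressed from the paternal allele in mouse placenta. The cluster is made of many near-identical hairpins that arose by tandem duplication in rodents, and it is known for high expression in the placenta and in embryonic stem cells. Each hairpin gives a 5p and a 3p product, often rich in opposite alternating repeats. In mouse cells, miR-669a has been reported to repress MyoD, miR-467b to repress lipoprotein lipase, and miR-466l to bind the Il10 transcript. A mature miRNA finds its targets mainly through its seed, bases 2 to 8 from the 5′ end.

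Mature sequences from RefSeq (GRCm38.p6) were matched to 8 members, all of which lie outside Sfmbt2. They are shown because they carry the opposite repeats, of A and C or of G and U, that the group is made of. Lower case marks the mature miRNA from 5′ to 3′ and capitals mark its seed. The first 4 are products of the 3p side of their hairpin and were measured on the arrays:
miR-466q: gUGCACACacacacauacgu
miR-467g: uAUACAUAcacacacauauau
miR-467f: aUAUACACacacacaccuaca
miR-466i-3p: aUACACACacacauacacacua
In these, A and C made up 70% of miR-466q, 71.4% of miR-467g, 85.7% of miR-467f and 86.4% of miR-466i-3p. miR-466i-3p and miR-466q shared an unbroken run of 14 bases, and miR-466i-3p and miR-467f a run of 13. Such runs are longer than a seed. Whether these probes also bind close relatives was not tested, so a signal may not belong to the named member alone.

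The other 4 were rich in G and U. Of these miR-669n, from the 5p side, was measured. miR-466k, also from the 5p side, and miR-466j and miR-467h, both from the 3p side, were low, so the repeat did not follow the arm in all 8:
miR-669n: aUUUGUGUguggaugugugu
miR-466k: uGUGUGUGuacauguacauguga
miR-466j: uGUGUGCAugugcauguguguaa
miR-467h: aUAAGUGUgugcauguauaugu
G and U made up 90% of miR-669n, 69.6% of miR-466k, 73.9% of miR-466j and 68.2% of miR-467h. No 2 of the 8 had the same seed, so these members are grouped by repeat and not by seed. The run ACACAC, read on the mature strand only, stood in 4 of the 8 and in 10 of the 915 array miRNAs with a sequence, 1.09% of them. The run GUGUGU stood in 4 of the 8 and in 15 of the 915, 1.64% of them. No member held both runs.

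RefSeq placed 71 of the 81 hairpin loci of these families inside the span of Sfmbt2 on chromosome 2 and 10 on 7 other chromosomes. The table gives gene spans and not introns, so the intronic position was not checked. By these loci 55 probes belonged to Sfmbt2 alone, of which 19 were measured. Another 9 belonged to loci elsewhere alone, of which 6 were measured: miR-466i-3p, miR-466i-5p, miR-466q, miR-467f, miR-467g and miR-669n. The remaining 5 matched loci in both places, and 3 of them were measured. The name of the cluster therefore covers most of the probes but not all, and the 6 measured probes of other loci were kept as a separate group.

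The families were detected unevenly. In miR-669, 13 of 25 probes were measured. In miR-466 it was 9 of 26, in miR-467 5 of 13 and in miR-297 1 of 4, and the probe shared by miR-466m-5p and miR-669m-5p was low. Of the 3p probes 17 of 32 were measured, or 53.1%, against 34.2% of the 447 other mouse 3p probes. Of the 5p probes 10 of 32 were measured, or 31.2%, against 29.5% of the 441 other mouse 5p probes. Of 5 probes with no arm in their name or place in a hairpin, miR-466f alone was measured. Taking all members, 40.6% were measured against 33% of all mouse probes. These shares are descriptive, since probe affinity differs between sequences.

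Only 12 of the measured members reached 50 on all 6 arrays, 10 on 5 arrays, 5 on 4 and 1 on 3. The last was miR-467a-5p, bright on 1 knockdown array and 2 control arrays, so no member passed through 1 line alone. Just inside the limit, the third-highest intensity was 55 for miR-669o-5p, 81 for miR-466d-3p and 81.75 for miR-466i-3p. Just outside it was 48 for miR-669e-3p, 46.5 for miR-669f-5p and 45.5 for the probe shared by miR-466b-5p and miR-466o-5p. Of the 41 low members, 34 were below 50 on every array. The low member with the highest single value was miR-467d-3p, at 389 on the control array of 48 h. That mean came from spots of 1742, -43, -76 and -66, so it rests on 1 spot.

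On the arrays as a whole, 321 to 374 mouse probes reached 50, and median local background ran from 89 to 181. Of the tissue markers, 5 of 21 probes for intestinal epithelium were measured, where 33% of all mouse probes were. They were miR-141-5p, miR-147-3p, miR-200c-3p, miR-375-3p and miR-375-5p. None of miR-192, miR-194, miR-215, miR-200a, miR-200b or miR-429 was among them. Most listed probes for the labelled colorectal origin were therefore not measured. For fibroblast and smooth muscle, 7 of 9 were measured, including miR-143-3p and miR-199a-5p. The intensity of each marker list was summed over all its probes, low ones included, with negative values taken as 0. For fibroblast and smooth muscle the sums were 2075, 5408 and 1552 in the knockdown at 24, 48 and 72 h. In the control they were 3601, 5442 and 4282. In the same order, epithelial markers summed to 800, 351 and 2136 against 664, 978 and 1010. Blood cell markers, 5 of 14 measured, ranged from 1272 to 2726 in the knockdown and from 1686 to 2404 in the control. Markers of muscle, liver and neuron, 6 of 17 measured, ranged from 1657 to 2802 and from 1687 to 1909. On the knockdown array of 72 h, where the members are lowest as described next, fibroblast markers had their lowest sum and epithelial markers their highest. These sums are of unnormalised intensity, so 1 bright probe can set them. After normalisation, 3 of the 5 measured epithelial probes were above the control at 72 h and 2 below. Their log2 differences ran from -1.40 to 1.65, with a median of 0.14. Of the 7 measured fibroblast probes 1 was above and 6 below, with a median of -1.22. The part of these markers in the results was not tested. Fewer cells of a type and less RNA per cell cannot be told apart in bulk RNA.

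The intensities themselves set the knockdown array of 72 h apart. The median intensity of the 28 measured members was 295.4 in the knockdown at 24 h, 307 at 48 h and 78.4 at 72 h. In the control it was 274, 131 and 199.4. Over all 372 measured mouse probes the same medians were 176, 247 and 173 in the knockdown and 232, 183 and 208 in the control, so the members' median was below that of all probes in the knockdown at 72 h by the widest margin, in the control at 48 h by a smaller one and in the control at 72 h by a slight one. Of the 28 measured members, 16 reached 50 on the knockdown array of 72 h and 22 on the control array of 48 h, against 25 to 28 on the other 4 arrays.

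**Figure D1:**
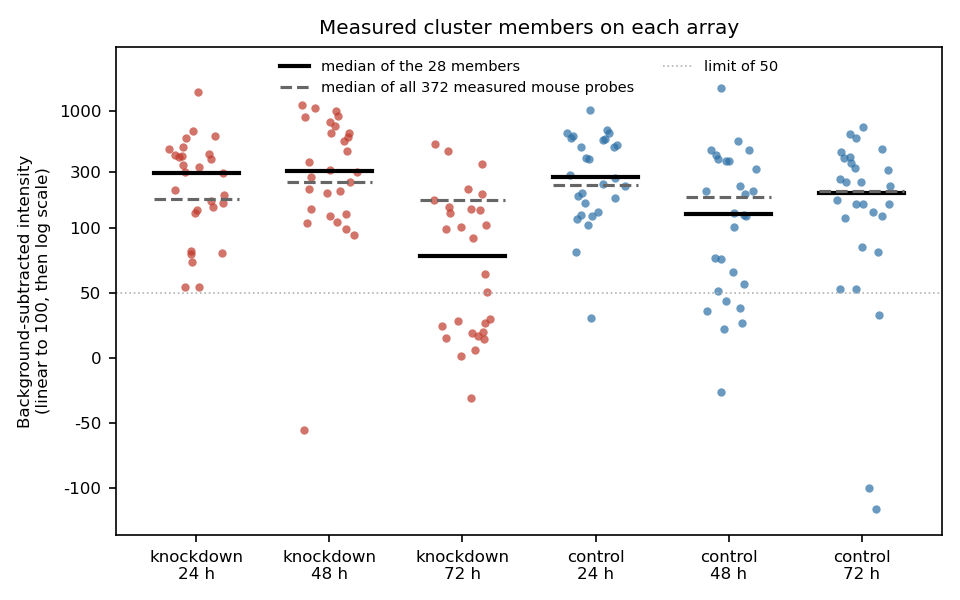
Background-subtracted intensity of the 28 measured members on each of the 6 arrays (y axis, arbitrary units, linear to 100 and logarithmic above). Points are member probes, solid bars their median and dashed bars the median of all 372 measured mouse probes; on the knockdown array of 72 h the member median is 78.4 against 173 for all probes.

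Several 3p members show this directly. miR-466f-3p, whose hairpins lie both in Sfmbt2 and elsewhere, had intensities of 612, 988 and 145.25 in the knockdown at 24, 48 and 72 h and of 688, 553 and 405 in the control. miR-467e-3p had 590.5, 904 and 142.25 in the knockdown and 612, 371 and 634 in the control. Both were lowest in the knockdown at 72 h and brightest of their own knockdown values at 48 h, and the lines overlapped.

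The same order was found in miR-669p-3p, with 488, 877 and 99 in the knockdown and 583, 371 and 314 in the control. miR-466q, from a locus outside Sfmbt2 whose sequence is given above, had 472, 642 and 133.75 in the knockdown and 641, 458 and 441 in the control. For the shared probe of miR-466a-3p, miR-466b-3p, miR-466c-3p, miR-466e-3p and miR-466p-3p, the values were 163, 300.5 and 15 in the knockdown and 281, 57.2 and 249 in the control. This probe fell below the limit of 50 on the knockdown array of 72 h alone, and its line values also overlapped. A different probe, shared by miR-466a-3p and miR-466e-3p only, was low, with 31.25 on its brightest array.

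A few members did not follow this order. miR-669n, the GU-rich member of the 5p side, had 427, 449.5 and 450.75 in the knockdown and 490, 207 and 355 in the control. miR-669c-5p had 66 in the control at 48 h and between 468 and 563 in the control at the other times, while its knockdown values at 48 and 72 h were 556 and 522. For both the lowest array was the control of 48 h. miR-466f, with no arm given, had 73.8, 131 and 174 in the knockdown and 163, 22.5 and 33 in the control, so its dim arrays were those of the control at 48 and 72 h.

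All further values are log2 intensities after background correction and quantile normalisation, which gives every array the same distribution of values. On this scale 16 of the 17 measured 3p members had their lowest value on the knockdown array of 72 h, and the exception was miR-669a-3-3p. Of the other 153 measured 3p probes, 49 were lowest there, or 32%. Of the 10 measured 5p members 5 were lowest there and 4 on the control array of 48 h, and of the other 130 measured 5p probes 52 were lowest on the knockdown array of 72 h, or 40%. At the other end, 11 of 17 3p members had their highest value on the knockdown array of 48 h, against 23 of the 153 other 3p probes, or 15%. The split by arm was made after these values were seen. The members share sequence, and many share a primary transcript, so they are not independent observations.

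**Figure D2:**
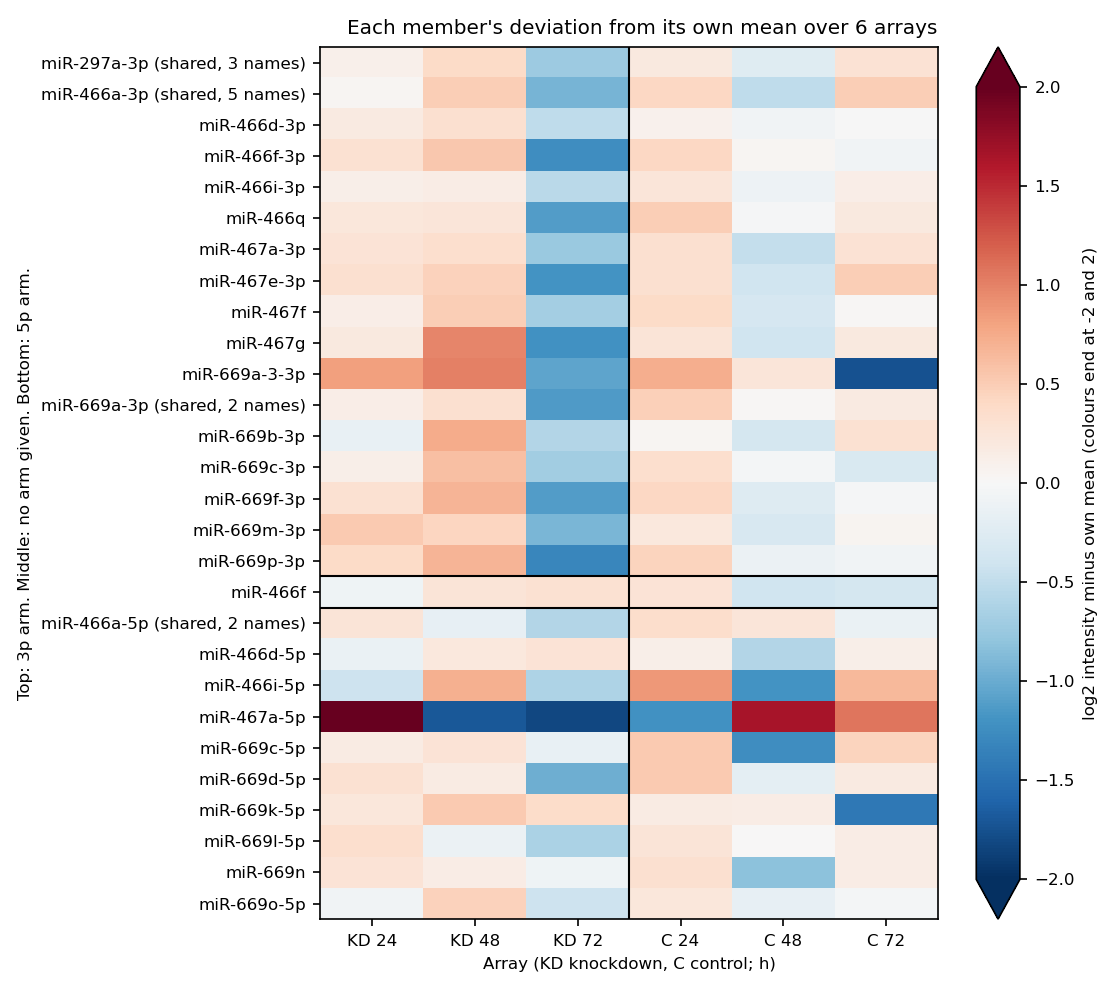
Deviation of each of the 28 measured members (rows, grouped as 3p arm, no arm given and 5p arm) from its own mean over the 6 arrays (columns), in log2 normalised intensity, with blue below and red above the mean. The column of the knockdown at 72 h is blue for all 17 of the 3p members shown, with miR-669a-3-3p bluer still in the control at 72 h; miR-467a-5p switches between strong red and strong blue.

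The first comparison asked whether the members differed between the knockdown and the control line over the 3 times. No member passed limma's moderated test with time as a factor at a Benjamini-Hochberg adjusted p of 0.05, and 0% of the 372 tested probes did. The smallest adjusted p was 0.998, and at an unadjusted p under 0.05 there were 0 members and 1 probe in all. The median difference of the members, knockdown minus control, was -0.09 log2 units against -0.11 over all tested probes, with 9 members above 0 and 19 below. By median scaling of the arrays in place of quantiles the members' median was 0.19, so its sign depends on the scaling. Over all tested probes 157 were above 0. The 95% interval of a member's difference had a median half-width of 1.29 log2 units, so differences of up to about that size lay within the error.

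By family the median difference was -0.22 for the 9 probes of miR-466, -0.08 for the 5 of miR-467, 0.01 for the 13 of miR-669 and -0.16 for the 1 of miR-297. The 19 members of Sfmbt2 alone had a median of -0.08 and the 6 members of other loci -0.11. None of these medians stood far from that of all tested probes. In 1 member, miR-669k-5p, all 3 knockdown values lay above all 3 control values, an arrangement found in 2.96% of tested probes. No member had all knockdown values below all control values, against 4.30% of tested probes.

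Only 3 of the 28 members had the same sign at all 3 times, as did 52 of the 372 tested probes. The shared probe of miR-466a-5p and miR-466p-5p had log2 values of 8.59, 8.18 and 7.76 in the knockdown and 8.70, 8.59 and 8.21 in the control. The knockdown mean was 8.18 ± 0.42 (SD over the 3 times, n = 3) and the control mean was 8.50 ± 0.25 (SD over the 3 times, n = 3). The groups overlapped, and the line difference was -0.32. Another probe, named miR-466a-5p alone, was low, with an intensity of 7.5 on its brightest array. miR-669k-5p had 8.22, 8.52 and 8.36 in the knockdown and 8.16, 8.15 and 6.56 in the control.

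For miR-669k-5p the difference was 0.74 with a 95% interval from -0.28 to 1.76, and most of it came from the control array of 72 h. miR-669a-3-3p had 9.83, 10.02 and 7.95 in the knockdown and 9.73, 9.26 and 7.27 in the control. The line difference was 0.51, and its 95% interval ran from -0.77 to 1.80. Both lines were lowest at 72 h for this probe, and the groups overlapped.

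**Figure D3:**
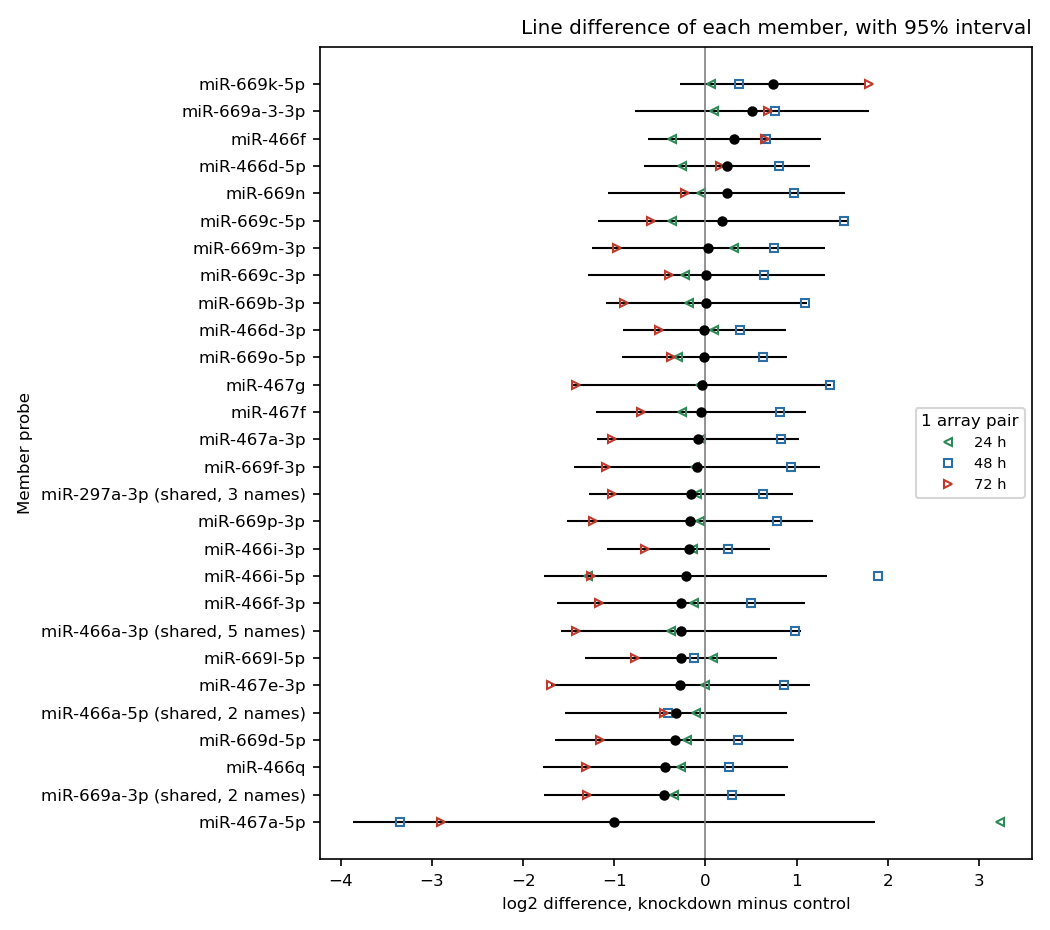
Difference between the lines (x axis, log2, knockdown minus control) for each of the 28 measured members, as the estimate over 3 times with its 95% interval (black) and as the difference of the 2 arrays at each time (coloured). Every interval spans 0; 25 members have their 48 h value to the right of 0, and 4 have their 72 h value there.

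The values of the last 2 probes at 72 h rest on spots with unusual local background. On the control array of 72 h, 190 of 4504 mouse spots, or 4.22%, had a background above 2 times the array's median, against 1 to 8 spots on each other array. Of those, 4 belonged to measured members, a pair on each of these probes. The spots of miR-669a-3-3p on that array were -637 and -859 beside a pair with a mean of 446, and those of miR-669k-5p were 37, 63, -182 and -318. The negative spots are the ones with high background.

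With high-background spots left out, a setting chosen after seeing the data, the intensity of miR-669a-3-3p on that array was 446 in place of -151. With the control at -151 only a bound of at least 1.15-fold higher in the knockdown at 72 h had been possible. The difference at 72 h went from 0.69 to -1.45 and its line difference from 0.51 to -0.20. miR-669k-5p kept its sign, and its difference at 72 h went from 1.80 to 0.68 and its line difference from 0.74 to 0.37. Without these spots all 17 measured 3p members were below 0 at 72 h.

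**Figure D4:**
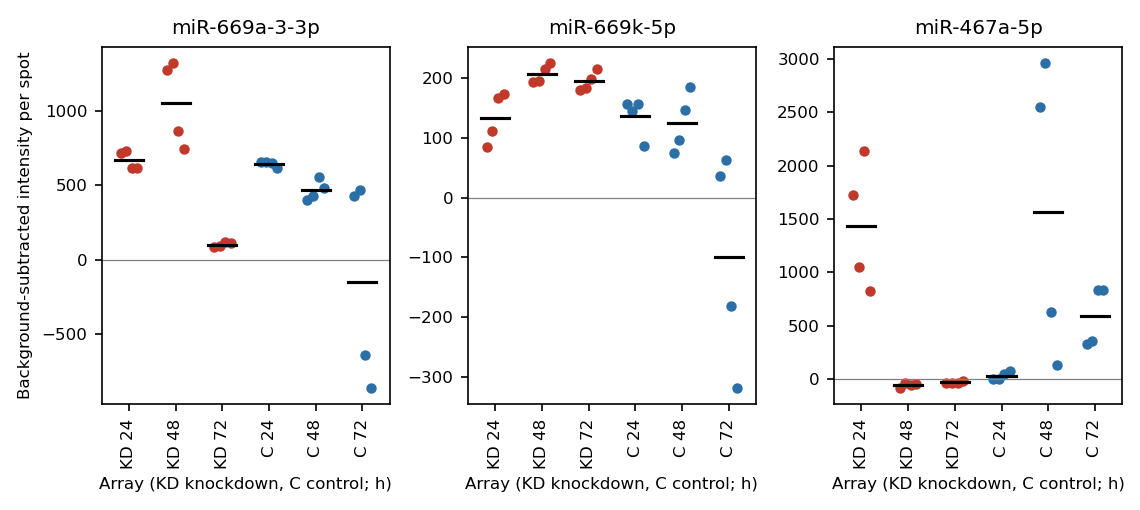
Background-subtracted intensity of each of the 4 spots (points) and their mean (bars) on the 6 arrays for 3 members, in arbitrary units on linear axes that differ between panels. On the control array of 72 h, miR-669a-3-3p has negative spots at -637 and -859 beside a positive pair; miR-467a-5p has a control spot at 48 h as high as 2960.

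miR-467a-5p was the least steady member between arrays. Its intensity was 1433, -55.2 and -30.8 in the knockdown at 24, 48 and 72 h and 31, 1570 and 589 in the control. It was bright in the knockdown at 24 h alone and in the control at 48 and 72 h, and its 4 spots on the control array of 48 h were far apart, with the brightest at 2960 and 2554 and the third at 632. A side below 50 allows only a bound, the bright value over the higher of the dim value and the lowest level measured on that array. By this bound the knockdown exceeded the control at least 8.36-fold for miR-467a-5p at 24 h, and was at least 6.13-fold lower at 48 h and at least 4.93-fold lower at 72 h. The opposite arm of the same hairpin, miR-467a-3p, had 170, 199.25 and 15.2 in the knockdown and 198.5, 26.8 and 161 in the control, a different order over the arrays.

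A difference at a single time rests on 1 array per line and has no test of its own. A fit of how far the line difference at 1 time departed from that at the other times has the same limit, so only its size is given. The members' median departure was 1.1 log2 units at 48 h, against 0.18 over all tested probes. At 72 h it was -1.26 against -0.32. Over the 28 members the median difference at 24, 48 and 72 h came to -0.12, 0.71 and -0.93, against -0.12, 0.19 and -0.38 over all 372 tested probes. Values below 50 enter these medians as measured, and on the knockdown array of 72 h they were 12 of the 28. Of the members 6 were above 0 at 24 h, 25 at 48 h and 4 at 72 h, against 149, 213 and 137 of the 372 tested probes. The 48 h and 72 h differences thus had opposite signs for most members, and they nearly cancelled in the comparison over all times. Without the 48 h arrays the median line difference of the members was -0.48, and without the 72 h arrays it was 0.27.

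At 24 h the members were close together. Of 32 member probes that reached 50 on 1 of the 2 arrays or on both, 1, miR-467a-5p, was higher in the knockdown by 2-fold or more, and 1 was lower by as much. Over the 413 probes compared, 2.66% were higher and 8.47% lower by that much. The lower member was miR-466i-5p, with intensities of 328.75 in the knockdown and 1012 in the control, a 2.44-fold difference. The next differences were small, at 0.31 for miR-669m-3p, -0.37 for the shared miR-466a-3p probe and -0.36 for miR-669c-5p.

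At 48 h, 4 of 31 members, or 12.9%, were at least 2-fold higher in the knockdown and 1 lower, against 21.5% and 13.2% of the 441 probes compared. The share of higher members was below the background while their median was above it, since most members were higher by less than 2-fold. miR-466i-5p had intensities of 1117 in the knockdown and 133.25 in the control, a 3.72-fold difference, opposite in sign to its differences at 24 h and 72 h. miR-669c-5p was 2.87-fold higher, miR-467g 2.57-fold and miR-669b-3p 2.14-fold. The lower member was miR-467a-5p. The count of higher members moved with the processing, from 3 without normalisation to 11 by median scaling, 15 with deposited intensities floored at 50 and 17 by the authors' deposited ratios, which also differ in background correction, offset and spot averaging. The other members below 0 were the shared miR-466a-5p probe at -0.41 and miR-669l-5p at -0.12.

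At 72 h, 13 of 32 members, or 40.6%, were at least 2-fold lower in the knockdown, against 25.3% of the 454 probes compared. By the normalised values 1 member was higher, miR-669k-5p, against 18.5% of the probes, but its control array was below 50 and the bound is at least 1.53-fold, under the limit. These counts move with the scaling: by median scaling 1 member was lower and 5 were higher, and without any normalisation 20 were lower and 0 higher. In 8 of the 13 both arrays reached 50, and in 5 the knockdown array was below it, with 1 bound, that of miR-467a-3p, just under 2-fold. Of the 13, 10 were 3p members, out of 18 compared, while 24.0% of the other 3p probes and 32.5% of the other 5p probes were lower by as much.

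Among members measured on both arrays at 72 h, miR-467e-3p was 3.23-fold lower, with the intensities given above. miR-466q was 2.48-fold lower, the probe that miR-669a-3p shares with miR-669o-3p 2.47-fold and miR-466i-5p 2.39-fold. miR-669p-3p was 2.35-fold lower, miR-466f-3p 2.25-fold, miR-669d-5p 2.24-fold and miR-669f-3p 2.12-fold. These 8 include 6 of the 3p arm and 2 of the 5p arm.

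Where the knockdown array was below 50, the bounds were at least 2.65-fold lower for miR-467g and at least 2.58-fold for the shared miR-466a-3p probe. They were at least 2.02-fold for the probe shared by miR-297a-3p, miR-297b-3p and miR-297c-3p and at least 1.96-fold for miR-467a-3p. miR-466f ran the other way: its control array was below 50, so the knockdown value exceeded it at least 1.41-fold.

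**Figure D5:**
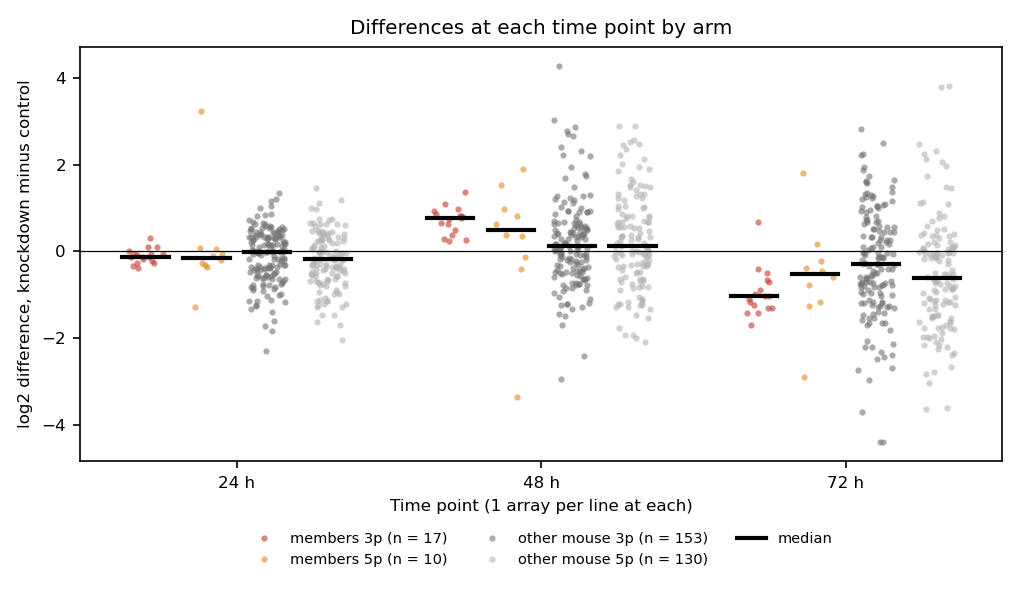
Difference between the knockdown and the control array (y axis, log2) at 24, 48 and 72 h for the 17 measured 3p members, the 10 measured 5p members and the other measured mouse probes of each arm. Points are probes and bars medians; the 3p members lie in a narrow band that is above 0 at 48 h and, except miR-669a-3-3p, below 0 at 72 h.

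The 3p members carried most of this. Their median difference was -0.12 at 24 h, 0.77 at 48 h with 17 of 17 above 0, and -1.03 at 72 h with 16 of 17 below. The other mouse 3p probes had medians of -0.02, 0.12 and -0.29, with 87 of 153 above 0 at 48 h and 91 below at 72 h. The 5p members had medians of -0.15, 0.50 and -0.52, with 7 of 10 above 0 at 48 h and 8 of 10 below at 72 h. For the other mouse 5p probes the medians were -0.18, 0.13 and -0.61, with 71 of 130 above 0 at 48 h and 90 below at 72 h. By these medians the 5p members at 72 h were no lower than other 5p probes, while the 3p members were lower than other 3p probes. By median scaling the median of all tested probes at 72 h moved from -0.38 to 0.60 and that of the 3p members from -1.03 to -0.12. Set against the median of all tested probes, the 3p members stood at -0.64 at 72 h and at 0.57 at 48 h, and over the 9 other settings tried between -1.33 and -0.58 at 72 h and between 0.53 and 0.86 at 48 h.

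The place of the hairpin made little difference to these medians. The 19 members of Sfmbt2 alone had medians of -0.10, 0.75 and -0.89 at 24, 48 and 72 h, and the 6 members of other loci -0.20, 0.90 and -0.98. The 3 with loci in both places had -0.12, 0.63 and -1.02. Each group thus turned in the same direction at 48 and at 72 h. Another imprinted cluster, Dlk1-Dio3, with 20 of 98 probes measured, had medians of 0.10, -0.04 and 0.51. The cluster from miR-290 to miR-295, known from embryonic stem cells and placenta like the members, had 7 of 14 probes measured and medians of 0.26, -0.28 and 0.11.

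Of the measured miRNAs outside the group with the same repeats, 3 carry GUGUGU and were at least 50 on all 6 arrays. At 24, 48 and 72 h, miR-206-3p had differences of -0.37, 1.03 and -0.56, miR-3082-5p of -0.41, 1.19 and -0.19, and miR-32-3p of -0.64, 0.53 and -1.24. All 3 had the signs that most members had at each time. Most of the 372 tested probes had these signs too, with 221 below 0 at 24 h, 213 above at 48 h and 234 below at 72 h. With ACACAC, miR-362-3p had intensities of 39.5, 106.5 and -14.5 in the knockdown and 76.5, 8.5 and 99.2 in the control. miR-3062-3p had 174.5, 56.8 and 27.5 in the knockdown and 60, 60.5 and -268 in the control, where 2 of its spots at 72 h had high background. miR-362-3p fell below 50 in the knockdown at 24 and 72 h and in the control at 48 h, and no fold is given for it. Its differences at 24, 48 and 72 h, each with a side below 50, were -0.19, 0.49 and -1.01, with the signs of most members. miR-3062-3p fell below 50 in both lines at 72 h. The difference of miR-3062-3p was 0.72 at 24 h, opposite in sign to that of most members. At 48 h it was -0.03, close to no difference, from intensities near the limit of 50 in both lines. These are 5 probes and support no test.

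The second comparison asked whether the members changed over time in both lines. No probe was called for the slope per 24 h by limma at the adjusted threshold, 0% of 372, and 9 had an unadjusted p under 0.05, of which 1 was a member. The median slope was -0.31 log2 units per 24 h for the members against -0.02 over all tested probes. Of 28 members 27 were below 0, all but miR-466d-5p at 0.10, as were 202 of the 372 tested probes. The members with the smallest p were miR-669a-3-3p at -1.08 ± 0.34 (SE), with a limma adjusted p of 0.999, miR-669p-3p at -0.55 ± 0.34 and miR-466f-3p at -0.51 ± 0.33. Without the high-background spots the slope of miR-669a-3-3p was -0.55. The decline rested largely on the knockdown array of 72 h: without it the members' median slope was -0.08, with 18 of 28 below 0. Over all tested probes the median was then 0.01, with 174 of 372 below 0. The slopes of miR-669p-3p and miR-466f-3p without that array were -0.15 and -0.15. Without both 72 h arrays the median was -0.18, against -0.11 over all tested probes. Taken by line, the members' median slope was -0.45 in the knockdown and -0.10 in the control, with 25 and 23 of 28 below 0. Over all tested probes it was -0.13 in the knockdown and near 0 in the control, with 227 and 189 of 372 below 0.

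The third comparison asked whether the slopes differed between the lines, and again 0% of the 372 probes were called. The median difference of slopes, knockdown minus control, was -0.39 log2 units per 24 h for the members against -0.17 over all tested probes. Of the members 23 were below 0 and 5 above, against 220 and 152 of the 372 tested probes. The smallest p among the members belonged to miR-467a-5p at -3.06 ± 0.98 (SE), with a limma adjusted p of 0.931. It was followed by miR-669k-5p at 0.87 ± 0.47 and miR-466f at 0.51 ± 0.41, 2 of the 4 members above 0 at 72 h. Without the high-background spots miR-669k-5p stood at 0.31, and without normalisation at 0.17, where miR-466f stood at 0.14.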

How the data were processed

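Hy3-labelled total RNA was hybridised to 1-colour locked nucleic acid miRNA arrays, per the labels' protocols. The authors deposited foreground and background-subtracted intensity per spot, unscaled between arrays per the file headers, and a ratio per probe. Each deposited ratio equalled the median background-subtracted intensity divided by 1 number per array (tolerance 1e-06); probes were not centred, column medians ran from 0.259 to 0.514, and how that number was chosen is unknown. Neither the scanner software nor a genome build is given in the sources used here, so no coordinates are printed.

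Intensities were corrected by normexp (offset 50), converted to log2, averaged over 4 spots and quantile normalised over 3439 probes in limma 3.58.1 (R 4.3.3), and tested with time as a factor over 372 probes, adjusted by Benjamini-Hochberg. The models were tested on simulated data. Fold changes at 1 time use a 2-fold limit. Named members were those of the same sign at all times, the 3 smallest p for each slope and the 3 largest differences each way at each time. Others, such as the 2-fold members, were named after their values were seen. The members and lists were chosen with earlier results of these data known. RefSeq tables (GRCm38.p6) gave loci, sequences and, for names without an arm, the side of the hairpin. Arrays were too few for a precise estimate, and dim probes have only a bound.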

Additional observations from a re-analysis of the deposited data

How the results depend on the processing

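The settings tried were the background correction, offset, scaling, probe set, filter, fold limit, authors' ratios (0.15 added), time block and leaving out arrays. Count of probes called between the lines: 0, and 0 to 4 when 1 array or time was left out. It was 3 without the 48 h arrays, 3 without knockdown replicate 2 and 4 without control replicate 2, with 0 members among them in every such fit. Replicate 2 of a line is its 48 h array. Without the time block (no replicate block) it was 0, with a smallest adjusted p of 0.976; deviations of the 2 arrays of a time correlated at -0.30, -0.52 and -0.34, so times did not pair arrays. Members at least 2-fold higher at 48 h numbered 11 by median scaling, 9 by cyclic loess, 8 with offset 16, 15 with values floored at 50, 17 by the authors' ratios, 20 at 1.5-fold, 1 at 3-fold and 2 among probes measured on all 6 arrays. Members lower at 48 h numbered 2 when floored, 2 at 1.5-fold and 0 in that filter. Members lower at 72 h numbered 1 by median scaling, 20 without normalisation, 4 with mouse probes alone, 2 at 3-fold and 8 in the filter on all 6 arrays. Members higher at 72 h numbered 5 by median scaling, 0 by cyclic loess, 0 without normalisation, 2 with offset 16, 2 when floored, 4 by the ratios, 0 without high-background spots, 3 at 1.5-fold and 0 in that filter. At 24 h, 0 members were lower at 3-fold and 0 higher in that filter. That filter left 12 members. The settings move the level of all probes, as given for 72 h, and the causes were not tested.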
